A study of Mus musculus with 6 samples.

Results

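The genes described here are 10 precursors of neuropeptides: Sst, Npy, Cartpt, Tac1, Penk, Pdyn, Cck, Nts, Gal and Grp. They were taken by name from 55416 annotated mouse genes, and they were chosen with their levels in these same samples known. Their values in the comparison are therefore given as a description; counts of those that passed the test over all genes are printed only beside the share of all genes, and nothing is read from them. RNA was measured in cells labelled as oligodendrocyte precursor cells, the dividing progenitors of myelin-forming cells, which were isolated from the cortex of mice on postnatal day 11. In the 3 Ift88 cKO samples the genotype was Pdgfra-Cre:Ift88 fl/fl with RosaEYFP, and in the 3 Ift88 control samples it was Pdgfra-Cre:Ift88 fl/wt with RosaEYFP. All animals thus carried Cre under the Pdgfra promoter, the EYFP reporter and at least 1 floxed copy of Ift88, a gene needed to build the primary cilium. Each sample pooled the cells of 4 to 6 mice, so that replicate spread is spread between pools; sex, strain background and the way the cells were sorted are not given in the sources used here.

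Neuropeptides are made as long precursors that enter the secretory pathway. Prohormone convertases cut them at basic residues, carboxypeptidase E trims the ends, the amidating enzyme PAM finishes many of them, and the products are stored in dense-core vesicles until release. Most then act on G protein-coupled receptors of neighbouring cells. In cortex these precursors are chiefly known from neurons: somatostatin and neuropeptide Y mark groups of inhibitory interneurons, and cholecystokinin is made by many cortical neurons. Several precursor genes carry a cAMP response element (CRE), the DNA site bound by the transcription factor CREB, and the title of the study names CREB signalling.

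Ift88, the floxed gene, had 1, 0 and 305 counts in cKO replicates 1 to 3, against 143, 32 and 167 counts in control replicates 1 to 3. The library labelled cKO replicate 3 thus had more Ift88 tags than any control, which goes against its label as far as the tag can show. The tags are read at the 3' end of the transcript and the floxed exons are not given in the sources used here, so a tag outside the deleted part would check nothing. Values are given under the deposited labels, and those of the precursors with enough counts also without that library. Sequencing depth was uneven: 5 libraries held 11773548 to 13909236 counts, and cKO replicate 2 held 568509. In cKO replicate 2, 3651 genes had a count and 50.5% of these had only 1 to 3, against 14047 to 16252 genes and 11.1% to 16% in the other libraries. Levels are given as CPM, the count of a gene scaled to the total count of its library. Where a gene had no count, its level could still be as high as 5.28 CPM in cKO replicate 2 and 0.216 to 0.255 CPM in the others, for counting error only. The library kit reads a tag at the 3' end of each transcript, so a CPM does not grow with transcript length but some genes in general use are listed at 0 (given with the undetected precursors), so an order of levels between genes holds for the deposited counts only. Of the 22 precursor markers, 7 had 20 counts or more in each of the 5 deeper libraries and 7 had no count in any library, among them Sox10, which is needed for the oligodendrocyte lineage, while 21 of the 24 general neuron markers had 20 counts or more in each of the 5. Olig1 and Olig2 had 32 and 67 counts in cKO replicate 3 and 0 in every other library. Pdgfra, whose promoter drives Cre, had 155, 0 and 121 counts in the cKO libraries, against 0, 59 and 56 counts in the control libraries. The cell type label is therefore met by part of its markers only, and these lineage genes were not steadily read. In the label check the neuron markers summed to 13479, 3298 and 13699 CPM in cKO replicates 1 to 3 and to 12391, 9523.5 and 3818 CPM in control replicates 1 to 3, and the precursor markers to 498, 7.04 and 400.1 CPM against 442, 593 and 330 CPM.

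Of the 10 precursors, 5 (Sst, Npy, Cartpt, Tac1 and Penk) had 20 counts or more in at least 4 libraries, and the other 5 did so in at most 1. Tac1 alone reached 20 counts in all 6. The mix differed between libraries. Penk made up 45.6% and 45.5% of the counts of the 10 genes in cKO replicates 1 and 3 but 0% in cKO replicate 2, against 1.91%, 0.777% and 0.0552% in control replicates 1 to 3, so the groups overlapped. Sst made up 16.9%, 0.287% and 25.2% in cKO replicates 1 to 3, against 62.3%, 90.4% and 27.1% in control replicates 1 to 3, with cKO replicate 3 next to control replicate 3. Tac1 made up 21.7%, 41.6% and 17.4% against 13.9%, 2.22% and 56.5%, and was thus the leading gene of control replicate 3. Cartpt made up 58.1% in cKO replicate 2 and at most 2.31% elsewhere. Fewer cells that express a gene and less RNA per cell cannot be told apart in these pooled samples.

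**Figure D1:**
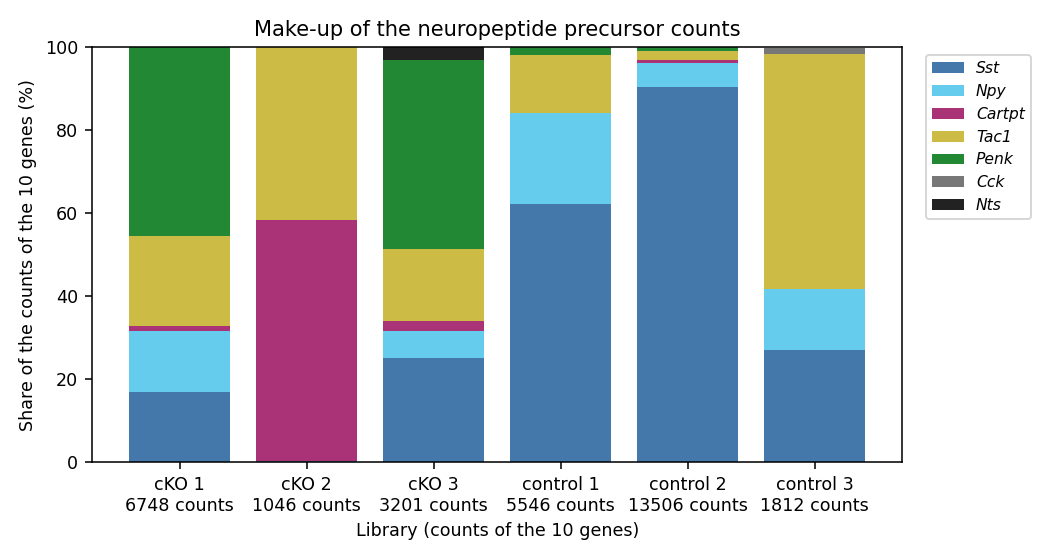
Share of each gene (%) in the counts of the 10 neuropeptide precursor genes, by library, with the 3 Ift88 cKO libraries left of the 3 Ift88 control libraries and the number of counts under each bar. Penk fills 45.6% and 45.5% of cKO replicates 1 and 3, Cartpt and Tac1 nearly fill cKO replicate 2, and Sst leads in control replicates 1 and 2.

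Promoter windows of the detected genes are shown because the study concerns CREB. They are RefSeq sequences on GRCm38.p6, each 300 bases long, starting 250 bases before the annotated start and printed in the direction of transcription; Penk and Grp had no window in the table used. Capitals mark the CRE palindrome TGACGTCA or, where it is missing, its core TGACG on either strand. The Sst window is chr16:23890795-23891094 (minus strand), that of Cartpt chr13:99900634-99900933 (minus strand), that of Tac1 chr6:7554811-7555110 (plus strand) and that of Npy chr6:49822460-49822759 (plus strand).
Sst: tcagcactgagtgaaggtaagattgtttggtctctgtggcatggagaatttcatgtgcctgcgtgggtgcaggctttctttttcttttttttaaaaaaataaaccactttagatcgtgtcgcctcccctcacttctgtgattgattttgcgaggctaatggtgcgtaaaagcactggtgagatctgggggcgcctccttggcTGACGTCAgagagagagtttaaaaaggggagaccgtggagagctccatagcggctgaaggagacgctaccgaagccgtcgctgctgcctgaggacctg
Cartpt: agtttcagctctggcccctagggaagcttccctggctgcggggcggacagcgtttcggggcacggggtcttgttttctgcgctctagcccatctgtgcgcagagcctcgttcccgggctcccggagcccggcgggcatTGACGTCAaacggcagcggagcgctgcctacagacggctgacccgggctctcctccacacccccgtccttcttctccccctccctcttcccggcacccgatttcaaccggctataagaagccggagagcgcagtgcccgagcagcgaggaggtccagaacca
Tac1: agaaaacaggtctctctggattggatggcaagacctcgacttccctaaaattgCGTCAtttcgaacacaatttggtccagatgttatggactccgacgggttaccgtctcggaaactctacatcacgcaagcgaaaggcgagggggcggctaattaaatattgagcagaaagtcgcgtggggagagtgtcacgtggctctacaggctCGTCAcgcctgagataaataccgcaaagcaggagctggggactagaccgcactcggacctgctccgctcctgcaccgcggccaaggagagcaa
Npy: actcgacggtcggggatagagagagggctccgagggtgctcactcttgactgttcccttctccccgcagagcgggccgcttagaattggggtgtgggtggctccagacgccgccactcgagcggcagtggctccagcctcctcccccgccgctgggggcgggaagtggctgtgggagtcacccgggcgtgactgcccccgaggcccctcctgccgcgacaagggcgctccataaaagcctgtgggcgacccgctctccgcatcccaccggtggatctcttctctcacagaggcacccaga
The palindrome begins 48 bases before the start of Sst and 112 bases before that of Cartpt. It was found in 2 of the 8 genes with a window kept, against 588 of 32851 windows of all genes (1.79%), which were not filtered by chromosome. The core TGACG, searched on both strands and contained in the palindrome, was found in 6 of the 8 genes and in 20.8% of all windows. Tac1 held it 197 and 43 bases before its start, and Npy and the 2 windows of Pdyn held none. A match gives letters only, and occupancy was not measured here. Any link between a match and the levels given below was not tested.

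Sst encodes somatostatin, an inhibitory peptide, and lies on chromosome 16 at 23708323 to 23709708 (GRCm39, minus strand). It had 1140, 3 and 806 counts in cKO replicates 1 to 3, against 3453, 12204 and 491 counts in control replicates 1 to 3. On the CPM scale this was 82.0, 5.28 and 68.5 in the cKO libraries, against 253, 957 and 36.2 in the control libraries. The 2 deeper cKO libraries lay between control replicate 3 and control replicate 1, so the groups overlapped. In cKO replicate 2 the exact 95% Poisson interval ran from 1.09 to 15.4 CPM, which is below the level of every other library. Sst was the 119th most abundant gene of control replicate 2, which held 67.4% of all its counts. The group means were 51.9 ± 40.9 CPM in cKO and 415 ± 481 CPM in control samples (SD, n = 3 each), a log2 difference of -2.98 on the log2(mean CPM + 1) scale. It was -1.46 without control replicate 2, -2.45 without cKO replicate 2 and -3.22 without cKO replicate 3.

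Npy encodes neuropeptide Y, often made by the same interneurons as somatostatin, and lies on chromosome 6 at 49799690 to 49806487 (GRCm39). It had 998, 0 and 208 counts in the cKO libraries, against 1218, 803 and 267 counts in the control libraries. These were 71.8, 0 and 17.7 CPM against 89.2, 62.9 and 19.7 CPM. Replicate 1 was the highest library of each group, the groups overlapped, and cKO replicate 3 and control replicate 3 had overlapping Poisson intervals (15.3 to 20.2 and 17.4 to 22.2 CPM). The means were 29.8 ± 37.4 CPM in cKO and 57.3 ± 35.1 CPM in control samples (SD, n = 3 each), a log2 difference of -0.92 that was -0.35 without cKO replicate 2, -0.66 without cKO replicate 3 and -2.57 without cKO replicate 1.

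Other genes of inhibitory neurons gave mixed values. Gad1 and Gad2, which make the transmitter GABA, had 0 and 0 counts in cKO replicates 1 and 3, where Sst had 1140 and 806 counts; Gad1 had 992, 901 and 61 counts in the controls. Slc32a1, the vesicular GABA transporter, had 187, 0 and 41 counts in the cKO libraries, against 1048, 1377 and 61 counts in the control libraries. The calcium-binding protein gene Calb2 lay the other way, with 1801, 0 and 850 counts against 74, 575 and 1. Of 20 inhibitory neuron markers, 15 reached 20 counts in at least 1 of the deeper libraries. The 20 markers summed to 859, 208 and 747 CPM in the cKO libraries and to 515, 528 and 285 CPM in the control libraries, and their part in the levels of Sst and Npy was not tested. None of the 12 tested passed the test across all genes (edgeR, quasi-likelihood, adjusted by Benjamini-Hochberg); Gad1 had the smallest p, with a mean of 0 CPM against 49.3 ± 38.8 CPM (adjusted p = 0.228, range over the alternatives 0.000274 by DESeq2 to 1; 0.662 without cKO replicate 2).

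Penk encodes proenkephalin, the source of the enkephalin opioid peptides, and lies on chromosome 4 at 4133531 to 4138819 (GRCm39, minus strand). It had 3074, 0 and 1455 counts in cKO replicates 1 to 3, against 106, 105 and 1 counts in control replicates 1 to 3. On the CPM scale this was 221, 0 and 124 in the cKO libraries, against 7.76, 8.23 and 0.0737 in the control libraries. Both deeper cKO libraries were far above every control, while cKO replicate 2 had none, where a 0 allows up to 5.28 CPM. The means were 115 ± 111 CPM in cKO and 5.36 ± 4.58 CPM in control samples (SD, n = 3 each), a log2 difference of 4.19 that was 4.77 without cKO replicate 2, 3.30 without cKO replicate 1 and 4.13 without cKO replicate 3. The higher level thus stands in 1 deep library, cKO replicate 1, when the library labelled cKO replicate 3 is left out. The antisense gene A830012C17Rik covers 14.3% of the exon bases of Penk but none of the last 500, where the tags are read.

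**Figure D2:**
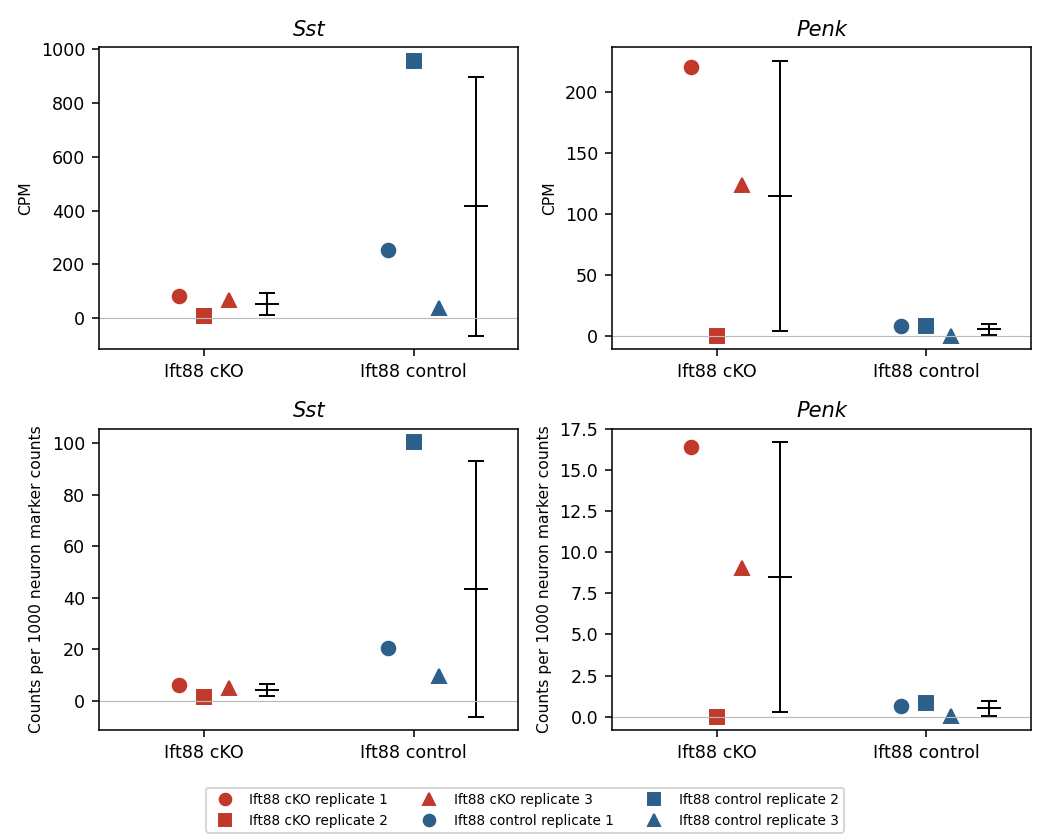
Sst (left) and Penk (right) in each library, as CPM (top) and as counts per 1000 counts of 24 general neuron markers (bottom), with Ift88 cKO left of Ift88 control; bars show the mean and SD of the 3 libraries. Penk is at 221 and 124 CPM in 2 cKO libraries and at most 8.23 CPM in the controls. Sst per neuron marker count is lower in all 3 cKO libraries, with 3 Sst counts over 1875 marker counts in cKO replicate 2.

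Neuron marker levels differed between libraries, so the precursors were also set against them. Per 1000 counts of the 24 general neuron markers, Sst had 6.08, 1.6 and 5.0 counts in the cKO libraries, against 20.4, 100.5 and 9.48 counts in the control libraries. On this scale the groups did not overlap, which they did in CPM. In cKO replicate 2 the value rests on 3 Sst counts over 1875 marker counts. Only 4 of the 24 markers had 20 counts or more in that library. Penk had 16.4, 0 and 9.02 counts per 1000 in the cKO libraries, against 0.627, 0.864 and 0.0193 in the control libraries. Of the 5 precursors with enough counts to be tested, Sst alone lay lower in all cKO libraries on this scale, where 21.0% of 12833 tested genes did so, and none lay higher, where 0.210% did so. Penk alone lay above every control without cKO replicate 2, in CPM and per neuron marker count, where 13.0% and 3.73% of 14562 tested genes did so. Without that library none of the 5 lay below every control in CPM, where 12.6% of genes did, and Sst alone did so per neuron marker count, where 24.0% did. In CPM over all 6 libraries none of the 5 was separated in either direction, where 1.33% of genes were higher and 11.1% lower.

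Tac1 encodes the precursor of substance P and neurokinin A, excitatory peptides of the tachykinin family, and lies on chromosome 6 at 7554879 to 7565834 (GRCm39). It had 1464, 435 and 557 counts in the cKO libraries, against 769, 300 and 1023 counts in the control libraries. These were 105, 765 and 47.3 CPM against 56.3, 23.5 and 75.4 CPM. Without cKO replicate 2 the groups were interleaved, and control replicate 2 was the lowest library. The means were 306 ± 399 CPM in cKO and 51.7 ± 26.2 CPM in control samples (SD, n = 3 each), a log2 difference of 2.54 that was 0.55 without cKO replicate 2 and 3.05 without cKO replicate 3.

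Cartpt encodes the CART peptides, named for their regulation by cocaine and amphetamine, and lies on chromosome 13 at 100034997 to 100037599 (GRCm39, minus strand). It had 72, 608 and 74 counts in the cKO libraries, against 0, 94 and 0 counts in the control libraries. These were 5.18, 1069 and 6.29 CPM against 0, 7.37 and 0 CPM. The Poisson intervals of cKO replicates 1 and 3 overlapped that of control replicate 2, and cKO replicate 2 alone was high, with an exact 95% Poisson interval of 986 to 1158 CPM. The means were 360 ± 614 CPM in cKO and 2.46 ± 4.25 CPM in control samples (SD, n = 3 each), and the log2 difference of 6.71 was 0.96 without cKO replicate 2 and 7.28 without cKO replicate 3. Some markers of the choroid plexus were also high in that library. Of the list, 14 of 15 were in the files and 6 of these had 20 counts or more in cKO replicate 2, and the sum of the list was 1446, 49551 and 1734 CPM in the cKO libraries and 1458, 1638 and 1776 CPM in the control libraries. Ttr, the choroid plexus carrier protein transthyretin, was at 376, 45945 and 574 CPM in the cKO libraries, against 25.1, 7.37 and 0.147 CPM in the control libraries. Otx2 was at 28.0, 477 and 36.3 CPM against 0, 8.94 and 0 CPM. Both thus lay above every control in all cKO libraries, as 1.33% of 12833 tested genes did. Sostdc1, Enpp2 and Slc4a5 were also highest in cKO replicate 2 but overlapped between the groups. Igfbp2 was the largest part of the sum in every library but cKO replicate 2, so near-equal sums do not show equal levels of Ttr or Otx2. It was lowest in cKO replicate 2, at 505 CPM against 808 to 1646 CPM elsewhere. Aqp1 was at 0 there against 12.7 to 186 CPM elsewhere, and Folr1, Kcnj13, Prlr, Kl and Clic6 were at 0 there and had at most 1 count in every other library but cKO replicate 3. Their part in the Cartpt and Tac1 levels was not tested.

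**Figure D3:**
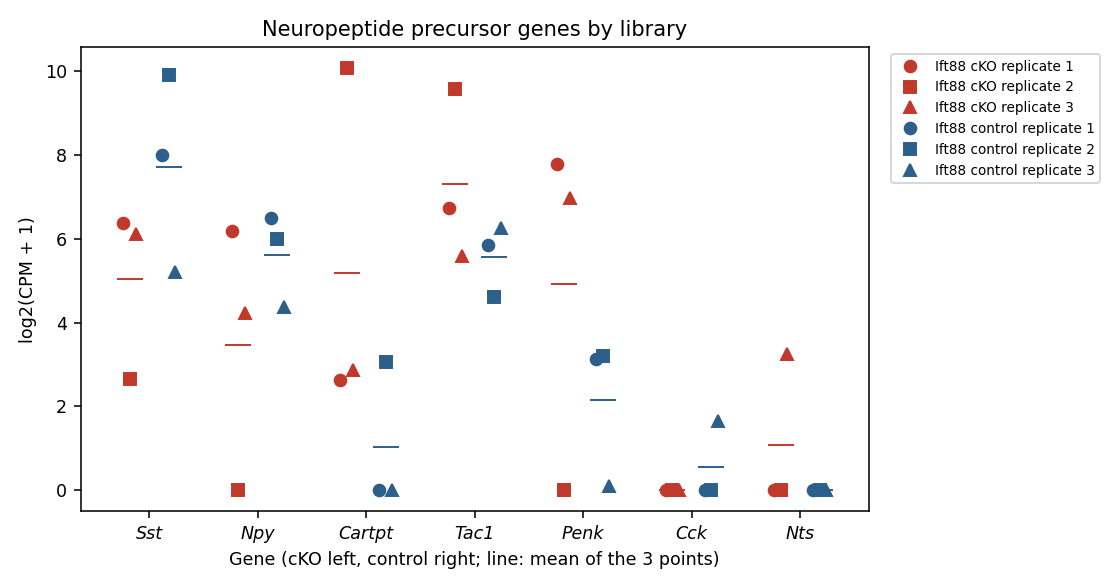
Level of the 7 precursor genes that reached 20 counts in a library, as log2(CPM + 1), with the Ift88 cKO libraries left of the Ift88 control libraries for each gene and lines for the mean of the 3 plotted points. The square of cKO replicate 2 lies apart from the other cKO points for Cartpt and Tac1 (high) and for Penk, Npy and Sst (low).

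The other 5 were absent or seen in 1 library. Nts, the neurotensin precursor, had 101 counts (8.58 CPM) in cKO replicate 3 and 0 in every other library. Cck, the cholecystokinin precursor, had 0 counts in the cKO libraries and 0, 0 and 29 counts in the control libraries. Gal, the galanin precursor, had 1 count, in control replicate 3. Pdyn, which encodes the dynorphin opioids, and Grp, which encodes gastrin-releasing peptide, were listed at 0 in all 6 libraries. Genes that most or all dividing cells use, such as the flap endonuclease gene Fen1 and the cytochrome oxidase gene mt-Co2, were also listed at 0 in all 6 libraries, so a 0 here does not show that the cells lack the gene, and the limits given for a 0 cover counting error only.

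In the test over all genes (edgeR's quasi-likelihood test, Benjamini-Hochberg adjusted p under 0.05), 0 of the 5 tested precursors passed, where 0.0156% of 12833 genes did. Without cKO replicate 2 it was 0 of 5, where 0.00687% of 14562 did. At the dispersion estimated from these data the test recovered 0 of 100 simulated 16-fold changes, with or without cKO replicate 2. The lack of a call, here and in the other lists, therefore does not show a lack of change. Unadjusted p was under 0.05 for 3 of the 5 in all 6 libraries, where it was for 2.83% of genes, and for 1 without cKO replicate 2, where it was for 6.09%. DESeq2 called 0 of 8, where it called 0.664% of 20339 genes, and limma-voom 0 of 5, where it called 0.0623% of 12833. Nothing is read from these counts, since the precursors were chosen on this contrast. The summed level of the 10 was 485, 1840 and 272 CPM in the cKO libraries, against 406, 1059 and 134 CPM in the control libraries. Its means were 866 ± 850 CPM and 533 ± 475 CPM (SD, n = 3 each), a log2 ratio of 0.70 that turned to -0.49 without cKO replicate 2 and was 1.13 without cKO replicate 3.

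Most further precursors were listed at 0 in both groups. Of 50 other peptide precursor genes, 33 had no count in any library, 16 reached 20 counts in a deeper library and 3 did so in all 5 of them. None of the 7 tested passed the edgeR test in either direction. Pnoc, which encodes the nociceptin precursor, had 466, 1 and 55 counts in the cKO libraries, against 3092, 750 and 62 counts in the control libraries. The fitted difference was -2.83 on the log2 scale (SE 1.87, adjusted p = 1 by edgeR; lowest over the alternatives 0.726). Like Sst it was highest in control replicates 1 and 2 and overlapped between the groups. Adcyap1, which encodes the peptide PACAP, had 165, 0 and 537 counts against 218, 0 and 190. The median log2 fold change of the 7 was -0.72, against -0.44 over all 12833 genes; without cKO replicate 2 the medians were -0.19 over 9 and -0.06 over 14562 genes.

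The machinery that matures and stores peptides was read in the 5 deeper libraries of both groups. Of 23 processing and dense-core vesicle genes, 14 had 20 counts or more in all 5 deeper libraries, and 2 of 23 (Scg5 and Cadps) did in cKO replicate 2. None of the 21 tested passed the edgeR test, and their median log2 fold change was 0.09, with or without cKO replicate 2. Cpe, which encodes carboxypeptidase E, led with 484 ± 434 CPM in cKO and 325 ± 167 CPM in control samples (SD, n = 3 each), or 725 CPM on average in cKO replicates 1 and 3. Pam had 174 ± 153 CPM against 342 ± 13.0 CPM, or 261 CPM on average in cKO replicates 1 and 3, and was at 0 in cKO replicate 2. The convertase gene Pcsk2 had 857, 0 and 3144 counts in the cKO libraries, against 220, 190 and 2 counts in the control libraries. Its deeper cKO libraries lay above the controls in CPM, as those of Penk and of 13.0% of 14562 tested genes did. The fitted log2 difference was 3.35 (SE 1.91, adjusted p = 0.9999 by edgeR, lowest over the alternatives 0.502). Pcsk5, another convertase gene, had 0, 0 and 1 counts against 233, 66 and 267 (adjusted p = 1 by edgeR; 0.767 without cKO replicate 2 and 0.0218 by DESeq2, the lowest over the alternatives).

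Receptors for the 10 peptides were detected in part. Of 26 receptor genes, 10 had no count in any library and 14 reached 20 counts in a deeper library. Sort1, a sorting receptor that binds neurotensin and has many other ligands, was the only 1 of the 26 with 20 counts or more in all 5. The somatostatin receptor genes Sstr1 and Sstr2 had 1305, 0 and 270 and 420, 1 and 368 counts in the cKO libraries, against 362, 164 and 0 and 296, 649 and 1 counts in the control libraries. Npy1r, a receptor of neuropeptide Y, had 441, 0 and 680 counts against 266, 19 and 89. Its cKO replicates 1 and 3 lay above the controls in CPM, as those of 13.0% of 14562 tested genes did. The fitted log2 difference was 1.70 (SE 1.82, adjusted p = 0.9999 by edgeR, lowest over the alternatives 0.592). The enkephalin receptor gene Oprd1 had 2, 0 and 0 counts against 0, 82 and 19, and Oprm1 had none. Tacr1, the substance P receptor gene, had 83 counts in control replicate 1 and 0 elsewhere, although Tac1 was read in every library. None of the 8 tested receptor genes passed the edgeR test, and their median log2 fold change was 0.76, or 0.77 over 10 genes without cKO replicate 2.

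**Figure D4:**
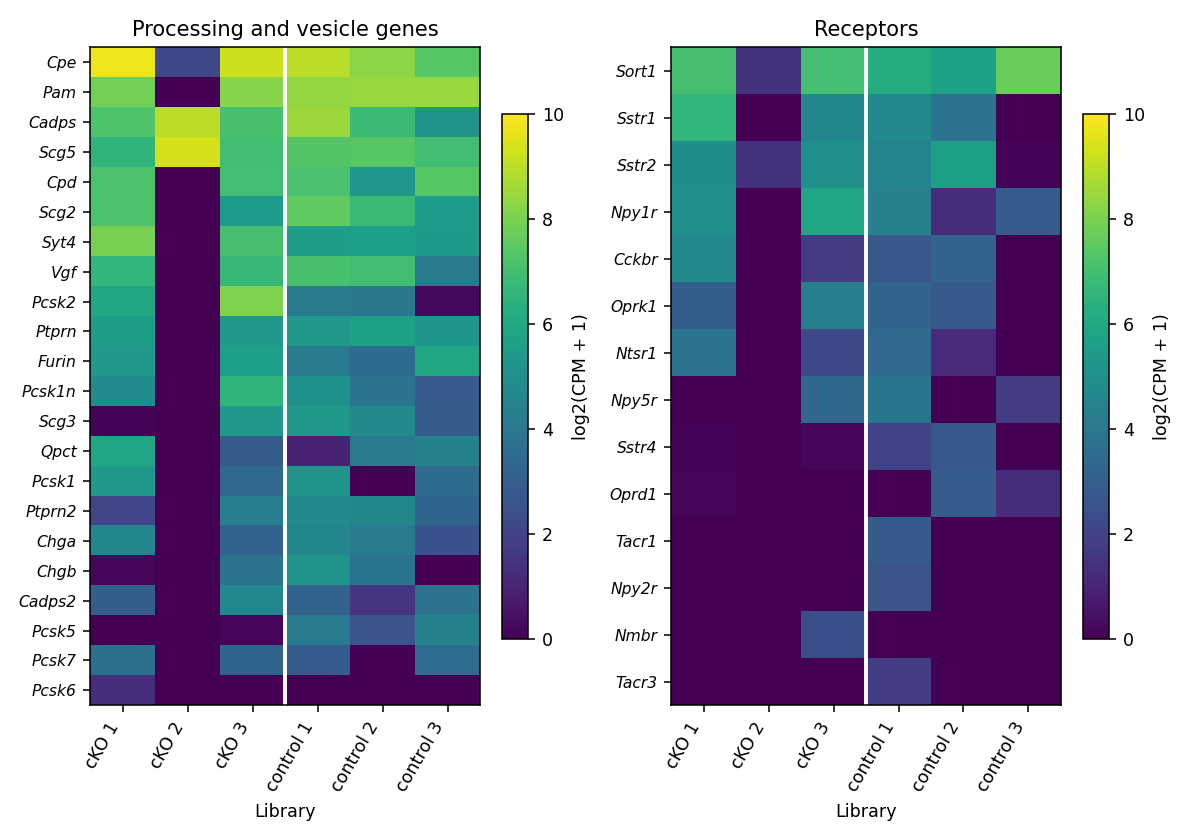
Level of peptide processing and dense-core vesicle genes (left) and of receptor genes (right) that reached 20 counts in a library, as log2(CPM + 1) by colour; columns are libraries, with the 3 cKO libraries left of the white line and the 3 control libraries right of it. Most rows are at or near 0 in cKO replicate 2, where Scg5 and Cadps are bright.

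Enzymes that break peptides down and the CREB machinery gave no call either, in a test that recovered 0 of 100 simulated 16-fold changes. None of 7 tested peptide-degrading genes passed. All 7 had a log2 fold change below 0, with a median of -1.21 against -0.44 over all genes, and each was at 0 in cKO replicate 2. Without that library all 8 were below 0, with a median of -0.68 against -0.06. These ran from -8.79 (SE 4.31) for Mme to -0.06 (SE 0.63) for Tpp2. The share of all genes below 0 was not counted, so nothing is read from the signs. Prep, a prolyl endopeptidase gene and the most abundant, had 504, 0 and 975 counts in the cKO libraries, against 1427, 1020 and 1504 counts in the control libraries. None of 13 tested genes of the CREB family, its coactivators and protein kinase A passed, with a median log2 fold change of -0.02, or 0.24 without cKO replicate 2. Creb1 itself had 1492, 0 and 912 counts in the cKO libraries, against 1414, 961 and 2612 counts in the control libraries. Over the 13 lists beside the 10 precursors, 0 of 135 tested genes passed the edgeR test, with 10 at an unadjusted p under 0.05, where 363 of 12833 genes (2.83%) were. DESeq2 called 3 of 184 (Gad1, Aldh1l1 and Pcsk5, lower in cKO), where it called 135 of 20339 genes, and limma-voom 1 of 135 (Col1a2, higher in cKO), where it called 8 of 12833.

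The genes most like the 3 precursors with the most counts were sought over the 6 libraries by the mean absolute difference of centred log2(CPM + 1). For Penk they were Ecel1, Calb2 and Pcsk2, at differences of 0.73, 0.75 and 0.76. Ecel1 had 1108, 0 and 997 counts in the cKO libraries, against 228, 251 and 3 counts in the control libraries. For Tac1 they were Cd164, Gm8767 and Wdr48, at 0.17, 0.22 and 0.27, and Cd164 had 1119, 224 and 361 counts against 541, 212 and 884. For Sst they were AC132091.1, Gm9247 and AC121875.1, at 0.44, 0.47 and 0.48. These are nearest neighbours among 12833 tested genes in 6 libraries, and no test was made of them.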

How the data were processed

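RNA was measured in 6 libraries, 3 Ift88 cKO and 3 Ift88 control. The authors deposited unnormalized counts of reads for each gene, obtained by running featureCounts 2.0.0 on the Ensembl release 104 annotation of GRCm39, per the file headers. The library kit, per the labels' protocols, was QuantSeq 3' mRNA-Seq FWD. No strand option is named in the command, so reads of antisense partners cannot be told apart, and reads with several alignments were left out by default. The submitters' processing notes list STAR, FastQC and DESeq2 but not what each was used for.

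Symbols were matched for 52083 of 55416 gene identifiers, and 267 of 268 list genes were found. CPM are counts scaled to the library total. Genes kept by filterByExpr (12833, or 14562 without cKO replicate 2) were scaled by TMM and tested with glmQLFit (robust) and glmQLFTest in edgeR 4.0.16 under R 4.3.3, two-sided, cKO against control, with Benjamini-Hochberg adjustment and a threshold of 0.05. The standard error is the log2 fold change divided by the square root of F. Log2 differences of single precursors use group mean CPM with a pseudocount of 1. Poisson intervals (95%) and the limit of a 0 (3 counts) do not cover PCR copying, which makes reads dependent. Simulated counts with 100 genes changed at each fold were used to check the test. At the dispersion estimated from all 6 libraries (1.79) it recovered 0 of 100 at 4-fold and 0 of 100 at 16-fold. The same held without cKO replicate 2, at an estimated dispersion of 1.32. With all 6 libraries and a dispersion of 0.05, 99 and 100 of 100 were found beside 11 false calls in 12833 genes.

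The precursors, the 14 gene lists and the rules were chosen with earlier results of these data known. The text names all 10 precursors. Of the other lists it takes the 4 most abundant genes, the 2 with the smallest p and any gene past the threshold. Not all of these are printed. Gad2, Slc32a1, mt-Co2, Fen1, Slc4a5, Oprd1, Oprm1, Tacr1, Sox10, Olig1, Olig2, Pdgfra, Mme and the choroid plexus genes at 0 were added after their values were seen. Other settings tried were scaling by RLE or by upper quartile, the tools DESeq2 1.42.0 and voom of limma 3.58.1, other filters, a replicate block and leaving out each library; scaling to neuron marker counts was added after the data were seen. Promoter windows are from RefSeq on GRCm38.p6 and were used only for their sequence. For the precursors, windows on chromosome 18, where Grp lies, were left out. The windows of all genes were not filtered in this way.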

Additional observations from a re-analysis of the deposited data

How the results depend on the processing

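With the main setting 1 gene was higher and 1 lower in cKO samples. Higher and lower genes numbered 14 and 2 with RLE scaling, 0 and 0 with upper-quartile scaling, 65 and 70 with DESeq2, and 6 and 2 with limma-voom. Higher genes numbered 22 without a filter, 2 with the filter of 5 CPM in 3 samples, 0 with the replicate block, and 0 to 6 when 1 library was left out. The precursors past the threshold numbered 0, except 1 (Cartpt) with RLE scaling. Genes called in the other lists numbered 0, except 2 with RLE scaling, 3 with DESeq2 and 1 with limma-voom. The log2 ratio of the summed precursors, 0.70, was 5.31 with upper-quartile scaling and 2.79 without Sst, the gene with the most counts. It was -0.49 without cKO replicate 2.

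The cause of these shifts was not tested. The median log2 fold change of all genes was -0.44 with TMM, -0.28 with RLE, -0.01 with upper-quartile scaling and -0.75 with limma-voom. In all 14 fits Sst and Npy had negative and Penk, Tac1 and Cartpt positive log2 fold changes. The fits share libraries and the precursors were chosen on this contrast, so the constant signs are no independent support. Per 1000 neuron marker counts, Tac1 turned the other way without cKO replicate 2, at a mean of 5.63 in cKO against 8.92 in control libraries. The others named kept their direction there. Same-numbered libraries correlated at 0.08, 0.05 and 0.01 in their deviations from the group means, so the numbers were not taken as pairs; the replicate block gave 0 higher and 1 lower gene. Depth limits cKO replicate 2 most: a 0 there allows a level of up to 5.28 CPM.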
